A study of Mus musculus with 2 samples.

Results

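The miR-34 and miR-449 family comprises the miRNA genes Mir34a, Mir34b, Mir34c, Mir449a, Mir449b and Mir449c, chosen by name from the GENCODE M21 annotation. These are 6 of the 2202 miRNA genes counted by microRNA-seq in mouse heart. Both libraries, replicates 2 and 1, came from the hearts of adult 5xFAD/CAST males at an age of 8 to 10 months. 5xFAD denotes a mouse line with mutant human amyloid precursor protein and presenilin transgenes driven by the neuronal Thy1 promoter, and CAST is a wild-derived inbred strain. The labels name the strain alone and hold no group without it, so no comparison between conditions was possible. They number the libraries as biological replicates with separate biosample entries but a shared donor entry, and do not state that separate animals were used. A difference between replicate 2 and replicate 1 is therefore one between these libraries and may be technical.

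A miRNA is cut from an RNA hairpin and pairs with messenger RNAs mainly through bases 2 to 8 of the mature strand, its seed. The miR-34 and miR-449 genes encode miRNAs that share a seed. Transcription of the miR-34 genes is activated by the tumour suppressor p53, and miR-34a is known in heart for its rise with age and injury. The miR-34b and miR-34c pair and the miR-449 genes are known for high levels in multiciliated epithelial cells and in testis, where they support cilium formation and sperm development.

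The mature 5′ strands are shown because the shared seed, in capitals, defines the family. The sequences are from RefSeq on GRCm38.p6, which is the mm10 build of the count tables, and 5 of the 6 genes matched an entry by symbol. Mir449b and the 5′ strand of miR-34c are named here without a mature sequence.
miR-34a-5p: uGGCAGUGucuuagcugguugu
miR-34b-5p: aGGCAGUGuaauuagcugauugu
miR-449a-5p: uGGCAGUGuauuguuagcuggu
miR-449c-5p: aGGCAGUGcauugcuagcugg
Of the 1738 RefSeq mature mouse miRNAs in the table used here, these 4 had GGCAGUG at bases 2 to 8, and the 5′ strand of miR-34c was not among those searched. Outside the seed the strands diverged. Read from the 5′ end, miR-34a-5p had the base of miR-449a-5p at 15 of 22 positions and that of miR-34b-5p at 11 of 22. The pair of miR-449a-5p and miR-449c-5p had the same base at 18 of 21 positions. When inserted and missing bases were allowed, the order changed: miR-34a-5p was 4 edits from miR-34b-5p and 6 from miR-449a-5p, and miR-449a-5p was 4 edits from miR-449c-5p. For Mir34c, whose counts come second in the family, the hairpin is shown with GGCAGUG in capitals.
Mir34c hairpin: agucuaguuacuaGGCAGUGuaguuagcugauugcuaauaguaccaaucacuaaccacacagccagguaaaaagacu
The letters GGCAGUG occurred on the given strand of 17 of 1005 RefSeq hairpins (1.69%), 5 of them in the family and 12 elsewhere.

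The 3′ strands on record did not carry this seed. For miR-34b and miR-34c they carried another shared seed, AUCACUA, that no other mature entry had.
miR-34b-3p: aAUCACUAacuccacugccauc
miR-34c-3p: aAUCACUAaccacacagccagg
miR-34a-3p: aAUCAGCAaguauacugcccu
The seed AUCAGCA of miR-34a-3p was found in no other entry. The deposited tables count reads per hairpin, so the share of each mature strand, and of reads that carry the family seed, was not measured.

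The genes lie at 3 places in the mm10 genome. Mir34a (ENSMUSG00000065493.1) lies on the plus strand at chr4:150068454-150068555, outside protein-coding genes. The last 17 bases of its hairpin overlap an exon of the unclassified transcript Gm37795. Mir34c (ENSMUSG00000065587.1, chr9:51103034-51103110) and Mir34b (ENSMUSG00000065492.1, chr9:51103562-51103645) lie on the minus strand 451 bases apart, within an intron of Btg4, a cell-cycle gene of the opposite strand. Mir449c (ENSMUSG00000076146.1, chr13:113035983-113036091), Mir449b (ENSMUSG00000078027.1, chr13:113037419-113037498) and Mir449a (ENSMUSG00000065575.1, chr13:113037534-113037624) lie on the plus strand in an intron of Cdc20b, a gene used by multiciliated cells and transcribed in the same direction. Mir449c and Mir449b are 1327 bases apart, and Mir449b and Mir449a only 35. The 5 hairpins with a sequence were 77 to 109 bases long, with a G and C content of 40.3% to 52.3%. None of the 5 shared a stretch of 20 or more bases with another RefSeq hairpin. The longest stretch shared within the family was 11 bases, between Mir34b and Mir34c and between Mir34a and Mir449a.

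Sense counts over all genes summed to 5058613 in replicate 2 and 3889280 in replicate 1, and a further 46.8% and 42.3% of all reads aligned to several places and were given to no gene. Levels are CPM, which is the share of sense counts scaled to a fixed library total. A read covers a whole mature miRNA, so CPM were not divided by hairpin length, and ratios per base of hairpin are given beside the ratios of counts. Detection was set at 10 or more counts in each library and held for 325 of 2202 genes (14.8%). The heart tissue label was checked against marker lists. Of 7 heart muscle entries 6 were detected, led by Mir499 (5888 CPM in replicate 2 and 2732 CPM in replicate 1) and Mir208a (1485 and 3885 CPM), and their list sum was 7481 CPM in replicate 2 against 6776 CPM for replicate 1. The other entries were low. Mir208b had 56.5 and 115 CPM and Mir1a-2 43.9 and 36.3 CPM. Mir133a-1, Mir133a-2 and Mir1a-1, copies of the main muscle miRNAs, each stood below 4 CPM in both libraries. For Mir1a-2 and these copies no sequence entry was found, so sharing with other hairpins could not be checked. Because reads aligned to several places were given to no gene, their levels are uncertain and do not show that these miRNAs were scarce. The endothelial gene Mir126a stood at 87787 and 87115 CPM. Its hairpin shares at least 20 bases with that of Mir126b, read on either strand. Whether this affects the level of Mir126a was not tested. The smooth muscle list summed to 41747 and 30137 CPM, the leukocyte list to 5000 and 6830 CPM and the erythroid list to 1243 and 1654 CPM. Most of the leukocyte sum was Mir155 (3211 and 4873 CPM), and most of the erythroid sum was Mir486 (1026 and 1334 CPM). The other erythroid genes stood lower, Mir451a at 165 and 288 CPM and Mir144 at 52.4 and 32.1 CPM. Mir451a shares at least 20 bases with another hairpin, and sharing could not be checked for Mir486, which had no sequence entry. The sums therefore do not measure blood cell content.

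Nearly all counts of the family belonged to Mir34a. In replicate 2 the family made up 0.871% of sense counts, with 95% Clopper-Pearson bounds of 0.863% and 0.879%. The share was 0.882% in replicate 1, with bounds of 0.872% and 0.891%, so the mean share was 0.876% ± 0.00754 (SD, n = 2). Mir34a held 98.8% of the family counts in replicate 2 (bounds 98.7% and 98.9%) and 99.2% of them in replicate 1 (bounds 99.1% and 99.3%). Its mean share was 99.0% ± 0.272. The other 5 genes together had 520 and 273 counts. In all, 3 of the 6 genes were detected, Mir34a, Mir34c and Mir449a, against 14.8% of all genes.

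Mir34a, the p53-linked gene that stands alone on chromosome 4, had 43545 counts in replicate 2 and 34021 in replicate 1. This gave 8608 CPM against 8747 CPM, with a mean of 8678 ± 98.5 (SD, n = 2), and the SD was 1.13% of the mean. Both libraries were thus high and close together, and every other member stood below 70 CPM in both.

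Mir34c was next, with 342 counts in replicate 2 and 154 in replicate 1, or 67.6 and 39.6 CPM and a mean of 53.6 ± 19.8. Replicate 2 was the higher library for this gene. Mir34a exceeded Mir34c 127-fold in counts in replicate 2 (95% exact interval 114 to 142) and 221-fold in replicate 1 (189 to 261). Per base of hairpin the ratios were 96.1 and 167.

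Mir449a, the member of the Cdc20b cluster with the most counts, had 170 in replicate 2 and 108 in replicate 1, or 33.6 and 27.8 CPM and a mean of 30.7 ± 4.13. Its libraries did not overlap those of Mir34c. Mir34c exceeded Mir449a 2.01-fold in counts in replicate 2 (1.67 to 2.43) and 1.43-fold in replicate 1 (1.11 to 1.84), or 2.38-fold and 1.69-fold per base of hairpin. The order of these genes was the same in both libraries.

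The remaining genes were at or near 0. Mir34b, the cluster partner of Mir34c, had 8 counts in replicate 2 and 9 in replicate 1, or 1.58 and 2.31 CPM. Mir449c had 0 and 2 counts, and Mir449b 0 in both. Where no read was counted, a floor of 3 counts was set, which is 0.593 CPM for replicate 2 and 0.771 CPM for replicate 1. The upper 95% exact Poisson limits of Mir449b, with 0 counts, were higher, at 0.729 CPM in replicate 2 and 0.948 CPM in replicate 1. In replicate 1 the 95% exact Poisson intervals of Mir34b (1.06 to 4.39 CPM) and Mir449c (0.0623 to 1.86 CPM) overlapped, and a difference between Mir449c and Mir449b was not detectable at this depth. Intervals and floors cover counting error only, since PCR copies of a molecule cannot be told apart where no molecular identifiers are named.

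**Figure D1:**
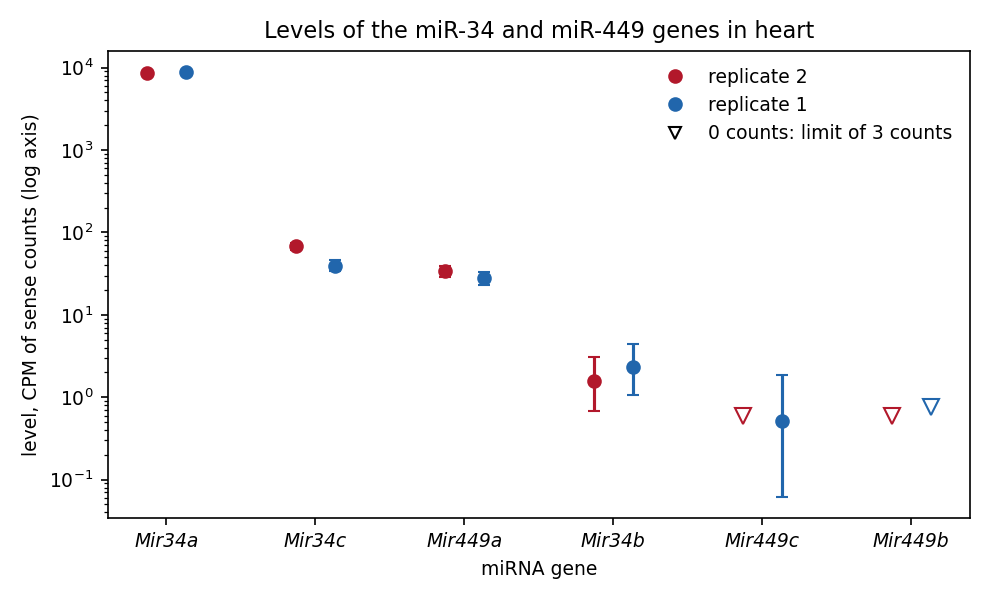
Level of each member in CPM of sense counts on a log axis, with replicate 2 left of replicate 1. Bars are 95% exact Poisson intervals of the count and open triangles mark 0 counts at the limit of 3 counts. Mir34a stands near 8678 CPM in both libraries, Mir34c and Mir449a between 27.8 and 67.6 CPM, and the other 3 genes below 3 CPM.

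Genes of a shared cluster differed widely in counts. In the chromosome 9 cluster, Mir34c exceeded Mir34b 42.8-fold in counts in replicate 2 (95% exact interval 21.5 to 99.8) and 17.1-fold in replicate 1 (8.78 to 38.1), or 46.6-fold and 18.7-fold per base of hairpin. The intervals of the libraries overlapped, and Mir34c was the higher gene in both. In the Cdc20b intron, Mir449a was at least 56.7-fold higher than Mir449b in replicate 2 and at least 36.0-fold higher in replicate 1, against the floor of 3 counts per library and with the Mir449a count taken as measured, without its counting error. Mir449a was also at least 56.7-fold higher than Mir449c in replicate 2.

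Unequal counts were common among neighbouring hairpins. Among 89 pairs of adjacent same-strand miRNA genes with gaps of at most 10 kb, whose higher gene had at least 100 counts in both libraries, the median ratio of mean CPM was 22.5, with a floor of 3 counts per library for the lower gene. The ratio of Mir34c to Mir34b was 27.5 on this scale, and 39 of the 89 pairs had a larger one. Mir449a over Mir449b stood at 45.0 or more, and 33 pairs were larger. Ratios of this size were thus also seen in many other adjacent pairs, and several pairs can belong to the same cluster. Reads aligned to several places were given to no gene, and how far this changed the ratios of these pairs was not tested.

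**Figure D2:**
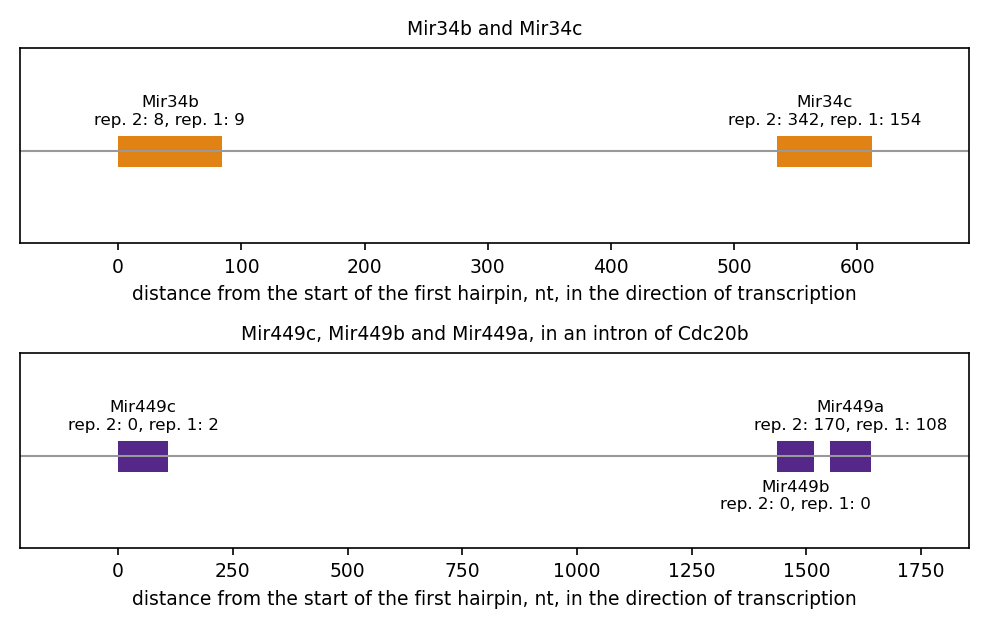
Maps of the Mir34b and Mir34c cluster and the Mir449 cluster, drawn to scale in the direction of transcription, with boxes for hairpins and the x axis in bases from the start of the first hairpin. Sense counts are printed at each hairpin, replicate 2 first. Mir34c and Mir449a, the last hairpin of each cluster, hold nearly all of its counts.

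Among detected genes Mir34a ranked 18 of 325 by mean CPM. The ranks cover only reads given to a gene, and reads aligned to several places were left out. Ranks of genes with near copies elsewhere are therefore uncertain. The nearest above was Mir30d, of the miR-30 family, at 11007 CPM in replicate 2 and 7026 CPM in replicate 1. Next below was Mir191 at 7788 and 8362 CPM, then Mir125a at 6148 and 9611 CPM. The libraries of Mir30d and Mir125a overlapped those of Mir34a, so these ranks were not separated by the spread between libraries, while those of Mir30a (9364 and 9099 CPM), Mir29a (14729 and 16355 CPM), Mir191 and Mirlet7f-2 (6923 and 6411 CPM) did not overlap them. Mirlet7f-2 shares at least 20 bases with another hairpin, so its level is uncertain. Sharing could not be checked for Mir30d, which had no sequence entry.

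Mir34c ranked 159 of 325, between Mir669o at 53.7 ± 10.2 CPM and Mir483 at 52.8 ± 21.3 CPM. The rest of its 6 nearest genes were Mir148b, Mir5099, Mir598 and Mir503, from 55.3 down to 51.1 CPM. Mir449a ranked 186, between Mir487b at 31.7 ± 3.78 CPM and Mir29b-2 at 30.3 ± 1.36 CPM, with Mir326, Mir450b, Mir3057 and Mir708 from 32.1 down to 29.6 CPM. The libraries of all 12 genes overlapped those of Mir34c or Mir449a, so at these levels neighbouring ranks were not separated. Mir29b-2 and Mir487b share at least 20 bases with another hairpin. Sharing could not be checked for Mir669o, Mir598 and Mir708, which had no sequence entry. Likeness here means a near mean level over 2 libraries.

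**Figure D3:**
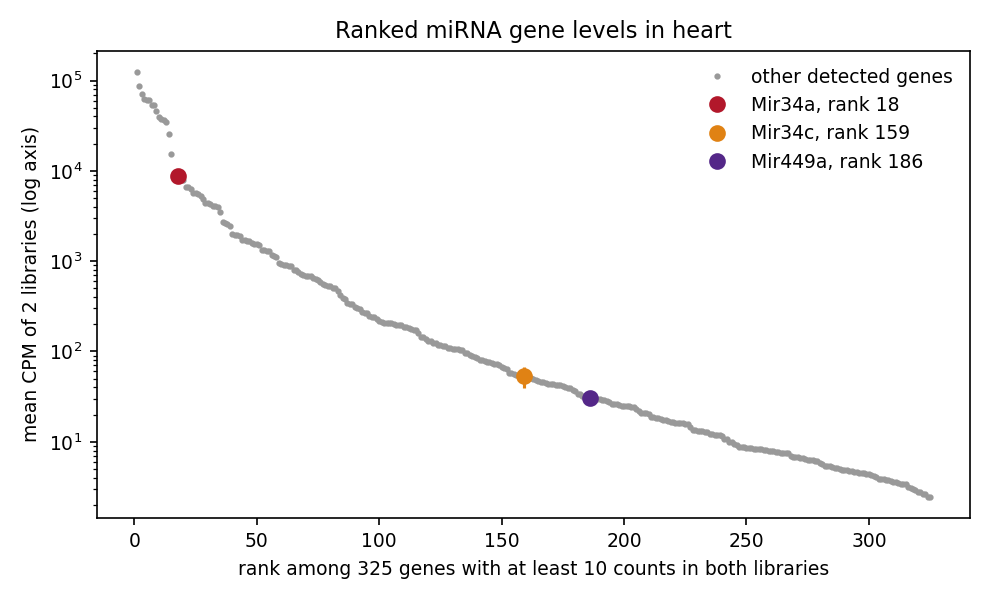
Mean CPM of the 2 libraries on a log axis against rank for the 325 detected genes. Coloured points are the detected members with vertical lines from the lower to the higher library, and grey points are all other genes. Mir34a lies at rank 18, and Mir34c and Mir449a lie at ranks 159 and 186, near the middle of the curve.

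Replicate 2 held more Mir34c than replicate 1, while the other tested members differed little or not beyond counting error. Genes with a sum of at least 10 counts entered an exact binomial test, two-sided, whose null was the ratio of TMM-scaled library sizes (edgeR), with Benjamini-Hochberg adjustment over 412 tested genes. Of these, 187 (45.4%) differed at an adjusted p below 0.05, 93 (22.6%) higher in replicate 2 and 94 (22.8%) higher in replicate 1. Scaling by total counts in place of TMM gave 79 genes higher in replicate 2 against 120 higher in replicate 1, and the median of detected genes shifted by -0.12 on the log2 scale. Of the 4 tested members 2 were called, against 45.4% of all tested genes, which is near the background. Both calls were higher in replicate 2. The median log2 ratio of the 4 members was 0.24, and that of all tested genes was -0.01.

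Mir34c was 1.83-fold higher in replicate 2 (log2 ratio 0.88 with 1 CPM added, adjusted p = 2.79e-10, exact binomial test). Of the 325 detected genes 271 had a ratio closer to 0. With total counts the log2 ratio of Mir34c was 0.76. For Mir34a the log2 ratio was 0.10 (adjusted p = 3.77e-20, exact binomial test), a 1.07-fold difference. It was -0.023 with total counts (adjusted p = 0.0541, exact binomial test), so the direction for Mir34a depended on the scaling. For Mir449a the log2 ratio was 0.38 (adjusted p = 0.0561, exact binomial test), which did not pass, and for Mir34b it was -0.28 (adjusted p = 0.755, exact binomial test). Mir449b and Mir449c had too few counts to test.

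The binomial test covers counting error alone, and calls followed depth. In the depth class of Mir34a, a mean of 10000 counts or more, 38 of 39 genes were called. Of the 108 with a mean of 100 to below 1000 counts, where Mir34c and Mir449a lie, 57.4% were called, and of the 70 with 5 to below 10 counts, where Mir34b lies, 5.71%. With the spread between the libraries added through the common dispersion of an intercept-only fit (biological coefficient of variation 0.357), the edgeR exact test gave an adjusted p of 1.00 for each of the 4 tested members.

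**Figure D4:**
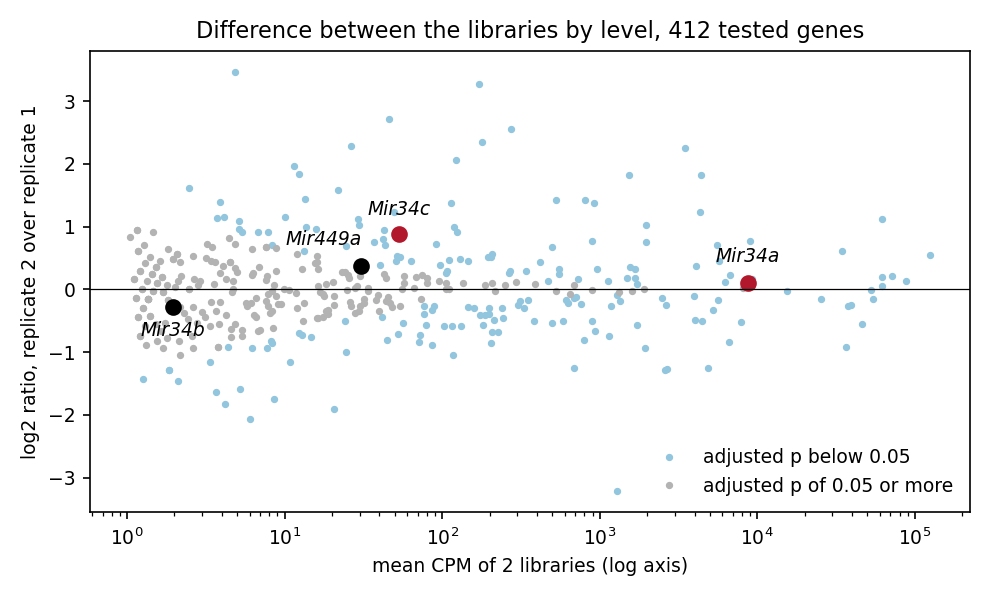
Log2 ratio of replicate 2 over replicate 1 against mean CPM on a log axis for the 412 tested genes. Small blue points passed the exact binomial test and grey points did not. Of the large labelled points, the red Mir34a and Mir34c passed and the black Mir449a and Mir34b did not. Mir34c lies at 0.88 and Mir34a at 0.10.

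Most tested markers of epithelial cells, a source of Mir34c and Mir449a in other tissues, were also higher in replicate 2 by the binomial test. That test covers counting error alone. With the spread between libraries added, the edgeR exact test called 2 genes of the whole table higher in replicate 2. The epithelial list of 11 entries summed to 420 CPM in replicate 2 and 217 CPM in replicate 1, with 8 of 11 detected. Its 10 tested genes included 8 that were higher in replicate 2 and 0 that were higher in replicate 1, against 22.6% and 22.8% of all tested genes. Several genes of the list lie close together on the same strand, so their calls are not independent. Mir200a, Mir200b and Mir429 do so on chromosome 4, and on chromosome 6 Mir200c and Mir141, and Mir182 and Mir183. The largest log2 ratios of the list were those of Mir205 (3.47) and Mir200b (2.29). Mir200b, an epithelial identity miRNA, had 223 counts in replicate 2 and 35 in replicate 1. Mir205, of stratified epithelium, had 49 counts in replicate 2 and 0 in replicate 1. Neither Mir429 (adjusted p = 0.0546, exact binomial test) nor Mir141 (adjusted p = 0.537, exact binomial test) passed. Mir96 had 0 and 1 counts. The highest gene of the list was Mir203, at 154 and 83.6 CPM. Its hairpin shares at least 20 bases with another hairpin, read on either strand, and the effect on its level was not tested. The part of epithelial cells in the Mir34c difference was not tested, and in tissue samples fewer cells of a type and less RNA per cell cannot be told apart. Markers of testis were at or near 0: of 13 X-linked testis entries 0 were detected, 10 had 0 counts in both libraries, and the list summed to 6 counts in replicate 2 and 3 in replicate 1. Mir465, one of the 10, shares at least 20 bases with 5 other hairpins, so its count is uncertain.

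Other miRNA genes linked to p53 were all detected, against 14.8% of all genes. They were chosen with earlier results of these data known. The list held 12 genes that p53 activates or whose processing it promotes in at least some cells. Of these, 7 were higher in replicate 2 and 2 in replicate 1 by the exact binomial test, against 22.6% and 22.8% of tested genes, with a median log2 ratio of 0.49 against -0.01 over all tested genes. Depth differed from that background: 6 of the 12 genes had a mean above 1000 counts, where 83.1% to 97.4% of tested genes were called. Mir22 stood at 82183 CPM in replicate 2 and 41035 CPM in replicate 1, and Mir143, a smooth muscle miRNA, at 40225 and 28674 CPM. Both exceeded Mir34a in each library, while Mir145a, the cluster partner of Mir143 in smooth muscle, stood at 1522 and 1463 CPM. Mir215, Mir192, Mir194-1 and Mir194-2, best known from liver and gut, stood between 11.1 and 54.6 CPM in the libraries, and Mir141 was the lowest gene of the list at 4.55 and 3.60 CPM. Mir215 had 54.6 and 30.3 CPM and was higher in replicate 2, whereas Mir192 had 26.1 and 24.9 CPM and did not pass the test. Mir107, Mir16-1, Mir194-1 and Mir194-2 share at least 20 bases with another hairpin, so their levels are uncertain. For Mir143, Mir145a and Mir15a no sequence entry was found, so sharing could not be checked. Mir143 and Mir145a are also on the smooth muscle list and Mir141 and Mir200c on the epithelial list, so the lists are not independent. Within the p53-linked list several genes lie close together on the same strand, so their calls are not independent either. The log2 ratios of the neighbours Mir15a and Mir16-1 were -0.51 and 0.68, and those of Mir143 and Mir145a were 0.61 and 0.18.

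Strand did not change the counts of the family beyond 1 read. In the column that ignores strand Mir34b had 8 and 10 counts, against 8 and 9 sense counts, and each of the other members had a count equal to its sense count. Counts on the opposite strand were 0 for all members in replicate 2, and 1 for Mir34b and 0 for the others in replicate 1.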

How the data were processed

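Small RNA libraries from 2 samples of mouse heart were analysed. The labels give total RNA and a size range below 30. The deposited tables hold raw read counts per miRNA gene in 3 columns, unnormalized, with summary lines for reads given to no gene. They name no strand: column 1 was read as ignoring strand, and the next, which summed to more miRNA counts than the last (5058613 against 1274539 in replicate 2, 3889280 against 858065 in replicate 1), as sense. The deposited description files state mm10 as the assembly and GENCODE M21 as the annotation. No aligner, counter or filter is given in the sources used here. Reads aligned to several places (46.8% of reads in replicate 2 and 42.3% in replicate 1) and other summary lines stayed out of library sizes. Sense counts were 35.6% and 35.9% of all reads.

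All 2202 identifiers matched GENCODE M21. TMM factors were 0.959 for replicate 2 and 1.04 for replicate 1 (edgeR 4.0.16). Tests were exact binomial tests (scipy 1.17.1) over genes with a sum of at least 10 counts. A quasi-likelihood fit was left out, since it compares groups and a single group was present. The binomial test was checked on Poisson counts with known changes. Such counts hold counting error alone, so the check does not cover the spread between libraries. Log2 ratios add 1 CPM, which understates those of low genes. DESeq2 1.42.0 supplied alternative size factors only. Named genes were all members, the 3 detected genes above and below each detected member in rank, the 3 most abundant p53-linked genes with Mir192, Mir194-1, Mir194-2 and Mir215, and hairpins that share a seed or 20 bases with a member. Markers from 7 cell-type lists were named beside the results they touch, some of them after their values were seen. The members and lists were chosen with earlier results of these data known.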

Additional observations from a re-analysis of the deposited data

How the results depend on the processing

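The direction of the Mir34a ratio depended on scaling. Its log2 ratio of replicate 2 over replicate 1 was 0.098 with TMM and -0.023 with total counts, where it also missed the test's threshold. The Mir34c ratio stayed between 0.76 and 0.93 in all 8 alternatives and passed the exact binomial test in 7. The Mir449a ratio of 0.38 passed with DESeq2 size factors (0.39, adjusted p = 0.0483), with a minimum sum of 50 counts (0.38, adjusted p = 0.0421) and in the column that ignores strand (0.43, adjusted p = 0.0319), all by the exact binomial test, and its adjusted p over the alternatives ran from 0.0319 to 1.00. Mir34b passed in none of 7 alternatives. The alternatives with 0.5 and 5 CPM added change the ratio alone, so their test results repeat the main ones for every member. A changed minimum sum alters only the adjustment of p. By the edgeR exact test with the spread between libraries added, 3 genes were called in place of 187 (2 higher in replicate 2 and 1 in replicate 1), and the calls of Mir34a (log2 ratio 0.098) and Mir34c (0.88) were lost, since that test adds the dispersion of these libraries. In the other 5 alternatives 173 to 199 genes were called.

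The level of Mir34a was 3103 CPM with all reads as the library total, 25597 CPM without the 10 most abundant genes in the total and 11365 CPM in the column that ignores strand, against 8678 CPM. The family share was 0.313%, 2.59% and 1.15% in these settings, against 0.876%. These follow from the change of total. Without replicate 1 the level was 8608 CPM and without replicate 2 it was 8747 CPM. The share of Mir34a in the family stayed between 98.8% and 99.2%, also per hairpin length. The number of detected members was 3 with at least 50 counts and 4 with at least 1 count in both libraries. No paired analysis was possible because both libraries belong to a single group. Depth limits Mir34b, Mir449b and Mir449c, for which differences between libraries were not detectable.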
